A study of Homo sapiens with 10 samples.

Results

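The 10 genes followed here, which stressed cells use to slow growth, were taken by their symbols from the TPM table (TPM is a transcript's abundance scaled by its length, with the same total in every library): the GADD45 family (GADD45A, GADD45B and GADD45G), the sestrins (SESN1, SESN2 and SESN3), the mTORC1 inhibitor DDIT4, the cyclin-dependent kinase inhibitor CDKN1A, and the antiproliferative genes BTG1 and BTG2. These are 10 of 36432 symbols, and 9 of them passed the low-value filter (1 TPM or more in any 2 libraries) that left 13418 genes for testing. RNA was sequenced from MDA-MB-231 cells, a human triple-negative breast cancer line. The groups were 3 BACH1 knockout (KO) clones without glucose (0 g/liter), the same 3 clones with glucose (4.5 g/liter), 2 WT (Ctrl) clones without glucose, and the same 2 clones with glucose, each after 40 hours in DMEM. Each clone and glucose level gave 1 library, 10 in all, and each KO clone was grown from an isolated colony of CRISPR-edited cells, so a clone stands for itself as well as for its genotype. BACH1 is a transcription factor released from DNA by heme, and HMOX1, the heme oxygenase gene, is its best known repressed target. With 4.5 g/liter glucose, HMOX1 measured 274 to 470 TPM in KO clones and 6.58 to 8.78 TPM in WT clones, and without glucose 1356 to 2033 TPM in KO clones and 532 to 568 TPM in WT clones. BACH1 RNA at 0 g/liter was 12.6, 23.9 and 17.2 TPM in KO clones 1, 2 and 3, against 19.7 and 20.6 TPM in WT clones 1 and 2. At 4.5 g/liter BACH1 RNA was 5.18, 2.84 and 3.42 TPM in KO clones, against 8.61 and 8.13 TPM in WT clones. The genotypes overlapped in BACH1 RNA without glucose, and since an edited gene can still be transcribed, this level does not check the knockout.

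The markers of the line were present in every library, where 7 genes known in it, such as VIM, CD44 and EGFR, ranged from 76.9 to 2066 TPM. These 7 include the epithelial keratins KRT8 (139 to 335 TPM) and KRT18 (150 to 316 TPM). The 5 luminal or epithelial genes that the line lacks, such as ESR1 and CDH1, ranged from 0 to 1.18 TPM, and 7 markers of leukocytes, endothelium and fibroblasts from 0 to 1.02 TPM. Mitochondrially encoded transcripts made up 22.4 to 29.1% of all TPM in KO libraries at 0 g/liter, 26.9 to 29.7% in KO at 4.5 g/liter, 23.3 to 24.7% in WT at 0 g/liter and 26.1 to 27.1% in WT at 4.5 g/liter. TPM keeps no sequencing depth, so the depth is unknown, and values near 0 carry an unknown sampling error. In these cultures, fewer cells expressing a gene and less RNA per cell cannot be told apart.

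The members act at different points of growth arrest. GADD45 proteins are small acidic proteins that bind the MAP3K4 kinase, PCNA and the CDK1-cyclin B complex, and couple stress to p38 and JNK signaling. Sestrins restrain mTORC1 through the GATOR complexes, with SESN2 known as a leucine sensor, and DDIT4 restrains mTORC1 through TSC2. CDKN1A (p21) inhibits cyclin-dependent kinases, and BTG proteins recruit the CCR4-NOT deadenylase to messenger RNA. The factors known to regulate these genes include the FOXO factors, and ATF4 and CHOP, the transcription factors of the integrated stress response.

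The promoters of 5 members are shown because 4 of these genes changed together with glucose and 1, DDIT4, did not pass the test. They are RefSeq sequences on GRCh38.p14, 5′ to 3′ on the strand of the gene, from base -180 to base -1 before the transcript start, and capitals mark matches on either strand to any of 7 motifs searched. The windows are chr19:2475947-2476126 (plus strand), chr9:89604832-89605011 (plus strand), chr1:28259338-28259517 (plus strand), chr12:92145847-92146026 (minus strand) and chr10:72273744-72273923 (plus strand).
GADD45B: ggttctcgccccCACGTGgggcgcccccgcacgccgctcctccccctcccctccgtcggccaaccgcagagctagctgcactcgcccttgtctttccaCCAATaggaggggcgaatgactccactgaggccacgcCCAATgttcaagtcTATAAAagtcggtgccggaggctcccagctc
GADD45G: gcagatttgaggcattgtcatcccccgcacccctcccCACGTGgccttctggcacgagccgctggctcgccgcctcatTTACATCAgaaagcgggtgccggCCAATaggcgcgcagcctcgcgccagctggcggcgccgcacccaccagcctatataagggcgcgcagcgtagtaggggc
SESN2: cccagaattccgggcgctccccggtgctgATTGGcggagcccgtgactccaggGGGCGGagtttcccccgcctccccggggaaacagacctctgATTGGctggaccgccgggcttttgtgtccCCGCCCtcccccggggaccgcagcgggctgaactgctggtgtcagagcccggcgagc
BTG1: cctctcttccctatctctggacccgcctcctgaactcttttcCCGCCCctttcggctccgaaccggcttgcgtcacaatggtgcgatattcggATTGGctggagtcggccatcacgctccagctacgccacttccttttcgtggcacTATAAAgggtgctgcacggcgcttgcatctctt
DDIT4: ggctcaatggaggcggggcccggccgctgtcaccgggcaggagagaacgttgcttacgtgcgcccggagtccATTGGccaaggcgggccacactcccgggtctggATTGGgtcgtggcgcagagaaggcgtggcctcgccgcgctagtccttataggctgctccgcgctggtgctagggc

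Motifs were searched in windows of 250 bases before to 50 after the start, of which RefSeq gave 35116 in all and 11 for 9 of the members (3 for SESN1, 1 each for the others, GADD45A not matched). The composite ATF4 and C/EBP element TGATGNAA was in 3.62% of all windows and in 1 member, GADD45G, at -102 to -95 on the minus strand. The E-box CACGTG was in 7.26% of all windows and in 2 members, GADD45B at -168 to -163 and GADD45G at -143 to -138. The TATA motif TATAAA, in 11.5% of windows, lay at -31 to -26 in GADD45B and at -33 to -28 in BTG1. CCAAT was in 34.6% of windows and in 7 members, including DDIT4, and GGGCGG, a GC box, in 45.0% of windows and in 5 members. Neither the cyclic AMP response element TGACGTCA (1.85% of windows) nor the AP-1 element TGANTCA (7.71%) was in a member window. CCAAT was the one motif of the 7 matched in the DDIT4 window. In the window of CDKN1A, which did change with glucose, GGGCGG was the one matched. A match of letters is a description of the sequence only.

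Removing glucose was followed by higher RNA of most members in both genotypes. In BACH1 KO cells, 7 of the 9 tested members were called higher and 0 lower, at an adjusted p under 0.05 (limma on log2(TPM + 1), Benjamini-Hochberg over all 13418 genes), where 9.05% of all genes were called higher and 19.9% lower. In WT cells, the same 7 were called higher and 0 lower, where 7.47% of all genes were called higher and 15.9% lower. The 7 were GADD45A, GADD45B, GADD45G, SESN2, CDKN1A, BTG1 and BTG2. GADD45G reached 1 TPM in 0 of the 5 fed libraries and so passed the filter through its starved libraries alone. Without GADD45G, 6 of 8 members were called higher in each genotype, with a median log2 change of 2.57 in KO and 2.78 in WT cells, against -0.15 and -0.17 over all genes. With median-ratio scaling of the libraries, 1620 genes were called higher and 1440 lower in KO and 1316 higher and 921 lower in WT cells, against 1214 and 2664 in KO and 1002 and 2136 in WT as deposited, and the members called higher were 7 in KO and 8 in WT, SESN1 being the added one. The same 7 members had every library at 0 g/liter above every library at 4.5 g/liter, 5 against 5, a pattern that 9.43% of all tested genes had in the upward direction. GADD45G, 1 of these 7, was among the tested genes only because of its starved libraries. Across the 5 clones, 9 of the 10 members were higher at 0 g/liter in each clone, as were 18.4% of all tested genes. The 9 include SESN3, which did not pass the filter and so is not among the tested genes. For each of these 9, an exact two-sided sign-flip test over the 5 clones gave 0.0625, the smallest p that 5 clones allow. Any gene higher in all 5 clones gets this p, so the test adds nothing to the count. All log2 changes are of TPM + 1, so the change of a gene with few TPM is understated.

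**Figure D1:**
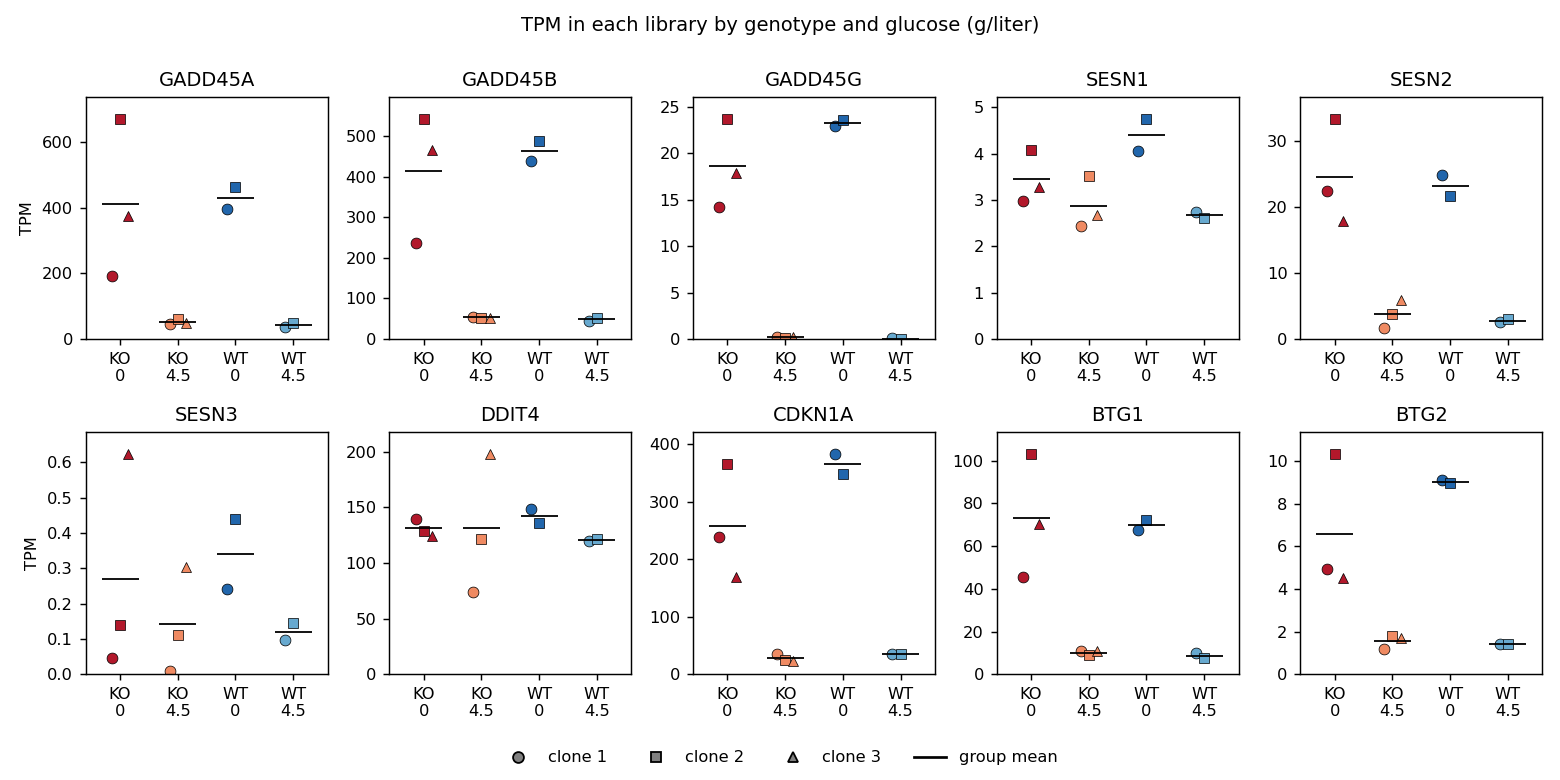
TPM (vertical axis, its own scale in each panel) of each of the 10 genes in the 10 libraries, by genotype and glucose (0 or 4.5 g/liter), where symbols stand for clones and bars for group means. For 7 genes all 5 libraries without glucose sit above all 5 with glucose, whereas DDIT4 overlaps, with KO clone 3 at 198 TPM with glucose.

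GADD45A and GADD45B, both known as stress-induced members that activate MAP3K4, were at similar levels and changed alike. GADD45A (chr1:67685201-67688334, plus strand, GENCODE on GRCh38) had 191, 671 and 375 TPM in KO clones 1, 2 and 3 without glucose, against 46.9, 62.2 and 48.8 TPM in the same clones with glucose. In WT clones 1 and 2 it had 395 and 463 TPM without glucose, against 37.3 and 48.0 TPM with glucose. Its libraries without glucose did not overlap those with glucose, and KO clone 1 was the lowest and KO clone 2 the highest of the 5 starved libraries. The fold of the means was 7.83 in KO and 10.1 in WT cells, and the log2 change was 2.78 (SE 0.37, adjusted p 0.00106) in KO and 3.31 (SE 0.45, adjusted p 0.00195) in WT.

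GADD45B (chr19:2476122-2478259, plus strand), whose promoter above holds an E-box and a TATA motif, had 236, 544 and 465 TPM in KO clones 1, 2 and 3 without glucose, against 55.3, 52.7 and 51.4 TPM with glucose. The WT clones had 439 and 488 TPM without glucose, against 44.9 and 51.9 TPM with glucose. Again KO clone 1 was lowest and KO clone 2 highest among starved libraries, and no starved library overlapped a fed one. The log2 change was 2.86 (SE 0.26, adjusted p 0.000171) in KO and 3.23 (SE 0.31, adjusted p 0.000443) in WT, or 7.81-fold and 9.57-fold between the means.

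GADD45G (chr9:89605012-89606555, plus strand), a tumor suppressor candidate that is often silenced in cancer cells, was near 0 with glucose and was the member with the largest log2 change in both genotypes. It had 14.2, 23.7 and 17.8 TPM in KO clones 1, 2 and 3 without glucose, against 0.179, 0.109 and 0.200 TPM with glucose. In WT clones GADD45G had 22.9 and 23.5 TPM without glucose, while with glucose WT clone 1 had 0.0620 TPM and WT clone 2 was listed at 0. Starved and fed libraries thus lay far apart, and the fed values are too close to 0 for a fold to be given. The log2 change of TPM + 1 was 4.04 in KO and 4.55 in WT, sizes that the pseudocount sets, since with a pseudocount of 0.1 they were 6.14 in KO and 7.52 in WT. Because only the starved libraries took the gene past the filter, these values are a description, and the adjusted p carries no weight.

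GADD45A and GADD45B made up nearly all of the summed level of the family in each group. The sum of the 3 GADD45 genes averaged 846 TPM in KO cells without glucose and 106 TPM with glucose, and 916 TPM in WT cells without glucose and 91.2 TPM with glucose. GADD45A made up 47.0% of the sum in starved KO, 49.5% in fed KO, 46.8% in starved WT and 46.7% in fed WT cells. GADD45B made up 50.6, 50.3, 50.6 and 53.3% in the same order of groups. GADD45G took 2.40% in starved and 0.156% in fed KO cells, and 2.54% in starved and 0.0376% in fed WT cells. These shares are group means over 3 KO or 2 WT clones.

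Of the 2 sestrins tested, SESN2 passed the test in both genotypes. SESN2 (chr1:28259518-28282491, plus strand), the sestrin known to be induced through ATF4 and NRF2, had 22.4, 33.4 and 17.9 TPM in KO clones 1, 2 and 3 without glucose, against 1.64, 3.75 and 5.89 TPM with glucose. WT clones 1 and 2 had 24.8 and 21.7 TPM without glucose, against 2.50 and 3.02 TPM with glucose. The glucose levels did not overlap, and KO clone 3 had both the lowest starved and the highest fed level. The log2 change was 2.49 (SE 0.33, adjusted p 0.00106) in KO and 2.69 (SE 0.40, adjusted p 0.0028) in WT, or 6.53-fold and 8.41-fold between the means. Per clone, the ratio of the starved to the fed level was 13.7, 8.90 and 3.04 in KO clones 1, 2 and 3, and 9.91 and 7.18 in WT clones 1 and 2.

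SESN1 (chr6:108984309-109094846, minus strand), a sestrin with several transcript starts, had 2.98, 4.08 and 3.28 TPM in KO clones 1, 2 and 3 without glucose, against 2.44, 3.52 and 2.67 TPM with glucose. WT clones 1 and 2 had 4.06 and 4.75 TPM without glucose, against 2.74 and 2.61 TPM with glucose. The KO groups overlapped, while the WT libraries did not. The log2 change did not pass the test in KO (0.20, SE 0.16, 95% interval -0.16 to 0.56, adjusted p 0.382) or in WT cells (0.56, SE 0.20, 95% interval 0.11 to 1.00, adjusted p 0.0685). With each clone as a block, since every clone was sampled with and without glucose, limma called the WT change at an adjusted p of 0.0257 and left the KO change at 0.240. The adjusted p for WT ranged from 0.0241 to 0.276 over 18 alternatives, of which 4 called it.

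SESN3 (chr11:95165513-95232541, minus strand), known as a FOXO target, was below 1 TPM in every library and was not tested. It had 0.0476, 0.141 and 0.624 TPM in KO clones 1, 2 and 3 without glucose, against 0.00854, 0.111 and 0.305 TPM with glucose. In WT clones it had 0.242 and 0.439 TPM without glucose, against 0.0969 and 0.144 TPM with glucose. It was higher without glucose in each of the 5 clones, at levels where TPM alone does not show how many reads stand behind a value. SESN2 accounted for 86.3% of the summed sestrin TPM in starved KO and 52.5% in fed KO cells, and for 82.9% in starved WT and 49.6% in fed WT cells. The sestrin sum averaged 28.3 TPM in starved and 6.78 TPM in fed KO cells, and 28.0 TPM in starved and 5.55 TPM in fed WT cells.

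DDIT4 (REDD1, chr10:72273919-72276036, plus strand) was abundant in all groups, and its change with glucose did not pass the test in either genotype. It had 140, 129 and 125 TPM in KO clones 1, 2 and 3 without glucose, against 74.3, 122 and 198 TPM with glucose. WT clones had 149 and 136 TPM without glucose, against 120 and 122 TPM with glucose. The fed KO clones spread more widely than any other group. The ratio of the starved to the fed level was 1.88, 1.06 and 0.630 in KO clones 1, 2 and 3, and 1.24 and 1.12 in WT clones 1 and 2. The log2 change was 0.11 (SE 0.28, 95% interval -0.52 to 0.73, adjusted p 0.799) in KO and 0.23 (SE 0.34, 95% interval -0.53 to 1.00, adjusted p 0.655) in WT. Leaving out the fed library of KO clone 1 turned the KO change to -0.24, and leaving out that of KO clone 3 made it 0.46, with adjusted p of 0.338 and 0.110. DDIT4 was the member with the highest level in fed cells, above 93.0% of tested genes in KO and 92.0% in WT.

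The spread of DDIT4 among fed KO clones went with that of other genes of the same stress pathway. The summed TPM of 27 known ATF4 and CHOP targets other than the members was 1566, 2123 and 2749 TPM in fed KO clones 1, 2 and 3, against 1724 and 1859 TPM in fed WT clones 1 and 2. Of these 27 genes, 21 were highest in clone 3 among the fed KO clones, as were 34.5% of all tested genes, a count made after the values were seen. SESN2 followed the same order of clones with glucose, at 1.64, 3.75 and 5.89 TPM. CDKN1A (36.0, 24.9 and 22.6 TPM) and GADD45B (55.3, 52.7 and 51.4 TPM) ran the other way. Of the 7 members called higher on glucose removal, 3 were highest in fed KO clone 1, 2 in clone 2 and 2 in clone 3. In starved cells the 27 genes summed to 3601, 4600 and 4292 TPM in KO clones 1, 2 and 3 and to 3960 and 4030 TPM in WT clones, above every fed library. DDIT4 did not follow that order of the starved KO clones 1, 2 and 3, at 140, 129 and 125 TPM. What part the spread among fed KO clones had in the DDIT4 result was not tested.

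CDKN1A (chr6:36676460-36687337, plus strand), which encodes p21, had 238, 365 and 169 TPM in KO clones 1, 2 and 3 without glucose, against 36.0, 24.9 and 22.6 TPM with glucose. WT clones had CDKN1A at 382 and 347 TPM without glucose, against 35.9 and 36.0 TPM with glucose. The glucose levels were far apart in each clone, and KO clones 1 and 3 were below both WT clones without glucose. Its log2 change was 3.12 (SE 0.26, adjusted p 0.000107) in KO and 3.31 (SE 0.31, adjusted p 0.000408) in WT, or 9.26-fold and 10.1-fold between the means. Fed cells had CDKN1A above 64.9% of tested genes in KO and 70.7% in WT, and starved cells above 96.7% in KO and 97.7% in WT.

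BTG1 (chr12:92140278-92145846, minus strand), an antiproliferative cofactor, had 45.7, 103 and 70.6 TPM in KO clones 1, 2 and 3 without glucose, against 10.8, 8.94 and 10.8 TPM with glucose. In WT clones it had 67.7 and 72.3 TPM without glucose, against 10.02 and 7.53 TPM with glucose. Starved and fed libraries did not overlap, and the KO clones spread about the WT values without glucose. The log2 change was 2.66 (SE 0.25, adjusted p 0.000209) in KO and 2.87 (SE 0.31, adjusted p 0.000649) in WT, or 7.19-fold and 7.98-fold.

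BTG2 (chr1:203305491-203309602, plus strand), a relative of BTG1, was lower in level and changed less. It had 4.94, 10.3 and 4.52 TPM in KO clones 1, 2 and 3 without glucose, against 1.17, 1.81 and 1.69 TPM with glucose. In WT clones it had 9.10 and 8.96 TPM without glucose, against 1.44 and 1.43 TPM with glucose. KO clones 1 and 3 lay below both WT clones without glucose and KO clone 2 above them. The log2 change was 1.50 (SE 0.26, adjusted p 0.00325) in KO and 2.04 (SE 0.31, adjusted p 0.00309) in WT, or 4.23-fold and 6.28-fold between the means, and 2.00% of tested genes in KO and 1.21% in WT had a larger log2 change.

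**Figure D2:**
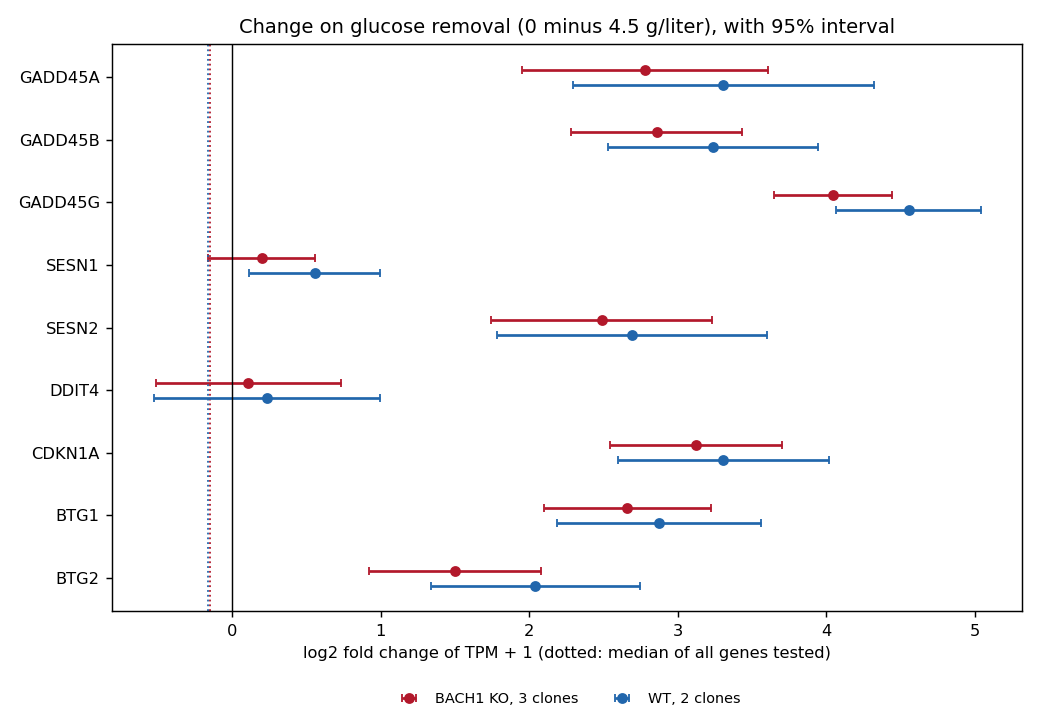
Log2 change of TPM + 1 on glucose removal (horizontal axis, 0 minus 4.5 g/liter) for the 9 tested genes, in BACH1 KO (3 clones, red) and WT (2 clones, blue), with 95% intervals from limma and dotted lines at the medians of all genes. The intervals of GADD45A, GADD45B, GADD45G, SESN2, CDKN1A, BTG1 and BTG2 lie above 0 in both genotypes, and those of DDIT4 include 0 in both.

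Whether the loss of BACH1 altered these genes was asked at each glucose level. Without glucose, 0 of the 9 tested members were called between KO and WT (limma, adjusted p 1 for each), 0 had an unadjusted p under 0.05, and 0.0373% of all genes were called. With glucose, 0 members were called and 0 had an unadjusted p under 0.05, where 0.0745% of all genes were called. The log2 difference, KO minus WT, was negative for 8 of 9 members without glucose, with a median of -0.24 (-0.02 over all genes). It was positive for 8 of 9 with glucose, with a median of 0.13 (-0.03 over all genes). Without the starved library of KO clone 1 it was negative for 5 of 9 at 0 g/liter, with a median of -0.16, GADD45A, GADD45B and BTG1 having turned to 0.23, 0.12 and 0.28. Without the fed library of KO clone 2, or of KO clone 3, it was positive for 6 of 9 at 4.5 g/liter. GADD45G, counted in these signs, passed the filter through its starved libraries alone. Over the 8 members without GADD45G, the median difference was -0.24 without glucose and 0.10 with glucose. CDKN1A was the exception with glucose, at -0.39 (95% interval -1.03 to 0.26), and SESN2 without it, at 0.04 (-0.79 to 0.87). CDKN1A averaged 258 ± 99.2 TPM in starved KO (SD, n = 3) and 365 ± 25.0 TPM in starved WT cells (SD, n = 2), a log2 difference of -0.57 with a 95% interval of -1.22 to 0.08. BTG2 averaged 6.60 ± 3.24 TPM in starved KO (SD, n = 3) and 9.03 ± 0.0933 TPM in starved WT cells (SD, n = 2), a difference of -0.48 (-1.13 to 0.16). The widest of these intervals reached 0.93 to either side of its estimate, for GADD45A at both glucose levels.

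The response to glucose removal, KO minus WT, was smaller in KO for each of the 9 members, from -0.54 for BTG2 to -0.13 for DDIT4, with a median of -0.36 (0.02 over all genes). None of these differences was called by limma (adjusted p 0.999815 for each), 0 had an unadjusted p under 0.05, and 0.00745% of all genes were called. The members share their libraries, so the common sign is not 9 separate observations, and leaving out 1 library turned it for 4 of them. Without the fed library of KO clone 3 the difference was 0.22 for DDIT4 and 0.12 for SESN2. Without the starved library of KO clone 1 it was 0.08 for BTG1, and for CDKN1A it was 0.08 without the starved library of KO clone 3 and 0.01 without the fed library of KO clone 1. For GADD45A the difference was -0.53 with a 95% interval of -1.84 to 0.78, the widest among the members, and for GADD45G it was -0.51 (-1.14 to 0.12). The pseudocount sets the GADD45G value over its fed levels near 0. At a pseudocount of 0.1 the GADD45G difference was -1.38 (-2.41 to -0.35), with an adjusted p of 0.999922 (limma). Without GADD45G, which passed the filter through its starved libraries alone, the median difference over 8 members was -0.28. For glucose removal within a genotype, an exact permutation test cannot go below 0.1 in KO cells (3 against 3 libraries). In WT cells (2 against 2) such a test cannot go below 0.333.

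**Figure D3:**
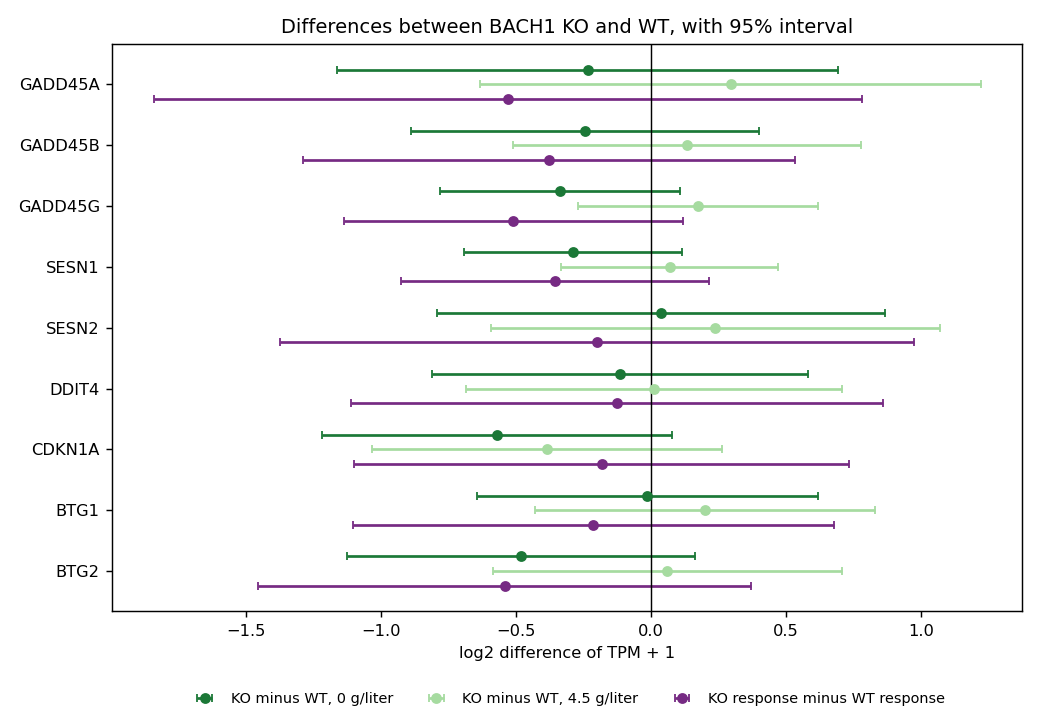
Log2 differences of TPM + 1 with 95% intervals from limma (horizontal axis) for the 9 tested genes: KO minus WT at 0 g/liter (dark green) and at 4.5 g/liter (light green), and the KO response minus the WT response to glucose removal (purple). Every interval drawn includes 0.

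The KO clones differed from each other in how high the members stood without glucose. Of the 7 called members, KO clone 2 was the highest of the starved KO clones for each, and the highest of all 10 libraries for 6, the exception being CDKN1A. Over all tested genes, 38.7% were highest in KO clone 2 among the starved KO clones. KO clone 1 was the lowest for GADD45A, GADD45B, GADD45G and BTG1, and KO clone 3 for SESN2, CDKN1A and BTG2. Mitochondrial transcripts took 29.1% of the TPM in starved KO clone 1, against 23.6 and 22.4% in starved KO clones 2 and 3, and their part in its lower levels was not tested. The starved to fed ratio of GADD45A was 4.07, 10.8 and 7.67 in KO clones 1, 2 and 3, and 10.6 and 9.65 in WT clones 1 and 2.

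The genes whose levels followed each member most closely over the 10 libraries were found among 10004 genes of at least 5 TPM on average, by Pearson's r on log2(TPM + 1), and are a description that rests mostly on the shared difference between starved and fed libraries. For GADD45A they were ENTPD7 (r = 0.994), SKIL (0.993) and RHOB (0.993), and for GADD45B they were ETV3 (0.996), JUNB (0.996) and PPP1R15A (0.996). GADD45G was followed by ARC, DNAJB4 and FOS (each 0.999), immediate early and chaperone genes, and BTG1 by ATF3 (0.996), JUNB (0.994) and EGR3 (0.994). CDKN1A was followed by FAM117A (0.993), SERTAD1 (0.993) and TNFRSF10D (0.992). SESN2 went with XBP1 (0.994), a transcription factor of the unfolded protein response, and with SRXN1 (0.986) and SLC39A14 (0.985). DDIT4 had the loosest matches, with KLF13 (0.904), the alanine transaminase gene GPT2 (0.874) and the serine enzyme gene SHMT2 (0.850).

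Lists of genes around the members, chosen with earlier results of these data known, gave the following counts at an adjusted p under 0.05 (limma). They stand beside all tested genes, of which 9.05% were called higher and 19.9% lower in KO and 7.47% and 15.9% in WT cells, with medians of -0.15 and -0.17. Of 17 tested upstream factors of these genes, 7 (41.2%) were called higher and 0 lower in KO, and 7 (41.2%) higher and 1 lower in WT cells, with medians of 0.53 and 0.47. EGR1, an immediate early factor, rose by 4.75 in KO (adjusted p 0.000283) and 4.88 in WT (0.00104) on the log2 scale, and ATF3, a stress factor of the CREB family, by 3.30 (0.0001) and 3.79 (0.00024). FOXO1, FOXO3 and ATF4 were among those called in both genotypes, with ATF4 changed by 0.72 in KO (adjusted p 0.0099) and 0.79 in WT (0.0206). MDM2, a ubiquitin ligase gene, was the 1 called lower, in WT at -0.52 (adjusted p 0.0430), and lost its call with median-ratio scaling (adjusted p 0.213).

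Known targets of ATF4 and CHOP were called higher more often than lower. Of 27 tested ATF4 and CHOP targets, 13 (48.1%) were called higher and 2 (7.41%) lower in KO, where 9.05% of all genes were higher and 19.9% lower, and 10 (37.0%) were called higher and 1 (3.70%) lower in WT cells, where 7.47% and 15.9% were, with medians of 0.95 and 0.85. PPP1R15A (GADD34), which directs dephosphorylation of eIF2alpha, rose by 4.03 in KO (adjusted p 1.1e-05) and 4.57 in WT (2.65e-05). SLC7A5, a large neutral amino acid transporter gene, fell by 0.70 in KO (adjusted p 0.00778) and 0.75 in WT (0.018), where its call was lost with median-ratio scaling (adjusted p 0.0655).

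Among the cell cycle genes and GADD45 partners more were called lower than higher, as among all genes, of which 19.9% were lower and 9.05% higher in KO and 15.9% lower and 7.47% higher in WT cells. Of 21 tested inhibitors, cyclins and kinases of the G1 phase, 1 (4.76%) was called higher and 13 (61.9%) lower in KO, and 2 (9.52%) higher and 11 (52.4%) lower in WT cells, with medians of -0.56 and -0.60. CDKN1C (p57), another CDK inhibitor, rose by 1.23 in KO (adjusted p 0.00102) and 1.45 in WT (0.00195), whereas CDKN2D (p19) fell by 1.13 in KO (0.00094) and 0.94 in WT (0.00707), and SKP2, a ubiquitin ligase subunit that targets CDK inhibitors, fell by 1.18 in KO (8.61e-05) and 1.26 in WT (0.00028). Of 13 tested GADD45 partners, 1 (7.69%) was higher and 7 (53.8%) lower in KO, and 1 (7.69%) higher and 4 (30.8%) lower in WT cells, with medians of -0.44 and -0.33. MAP2K3, a kinase that activates p38, rose by 1.32 in KO (adjusted p 0.00224) and 1.37 in WT (0.00666), while CCNB1 fell by 1.16 (0.000283) and 1.28 (0.000774), CDK1 by 0.91 (0.000814) and 1.12 (0.00123), and MAPK14, the p38alpha gene, by 0.70 (0.00117) and 0.70 (0.00433). With median-ratio scaling the G1 list had 2 higher and 10 lower in KO, and 2 higher and 5 lower in WT cells, and the GADD45 partners 1 higher and 5 lower in KO, and 1 higher and 3 lower in WT cells, where 12.1% of all genes were called higher and 10.7% lower in KO and 9.81% and 6.86% in WT.

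Genes that act with the sestrins and with the BTG proteins were mixed, and several of their shares lay near those of all genes (9.05% higher and 19.9% lower in KO, 7.47% and 15.9% in WT). Of 36 tested genes of the sestrin and mTORC1 pathway, 7 (19.4%) were called higher and 8 (22.2%) lower in KO, and 6 (16.7%) higher and 8 (22.2%) lower in WT cells, with medians of -0.06 and -0.12 that turned to 0.07 and 0.02 with median-ratio scaling, and to 0.04 in KO with quantile normalization. FLCN and FNIP1, partners that act on RagC at the lysosome, rose by 1.05 and 1.23 in KO (adjusted p 0.000973 and 0.00332) and by 1.07 and 1.19 in WT (0.0034 and 0.0125), whereas MTOR fell by 0.56 in KO (0.00543) and 0.59 in WT (0.0135), and RPS6KB1, the S6 kinase gene, by 0.58 (0.00133) and 0.60 (0.00411). MTOR lost its call in WT with median-ratio scaling (adjusted p 0.0591), under which the list had 9 higher and 4 lower in KO, and 6 higher and 2 lower in WT cells. Of 20 tested genes of the BTG/TOB family and the CCR4-NOT complex, 1 was called higher and 6 lower in KO, and 2 higher and 4 lower in WT cells, with medians of -0.11 and -0.12 that turned to 0.03 and 0.04 with median-ratio scaling. TOB1, a relative of BTG1, rose by 1.36 in KO (adjusted p 0.000458) and 1.85 in WT (0.000467), while CNOT11, a subunit of the deadenylase complex, fell by 0.46 in KO (0.00737) and 0.58 in WT (0.0088), with a call lost in KO under quantile normalization (adjusted p 0.0501). Median-ratio scaling gave this list 2 higher and 3 lower in KO, and 3 higher and 2 lower in WT cells.

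**Figure D4:**
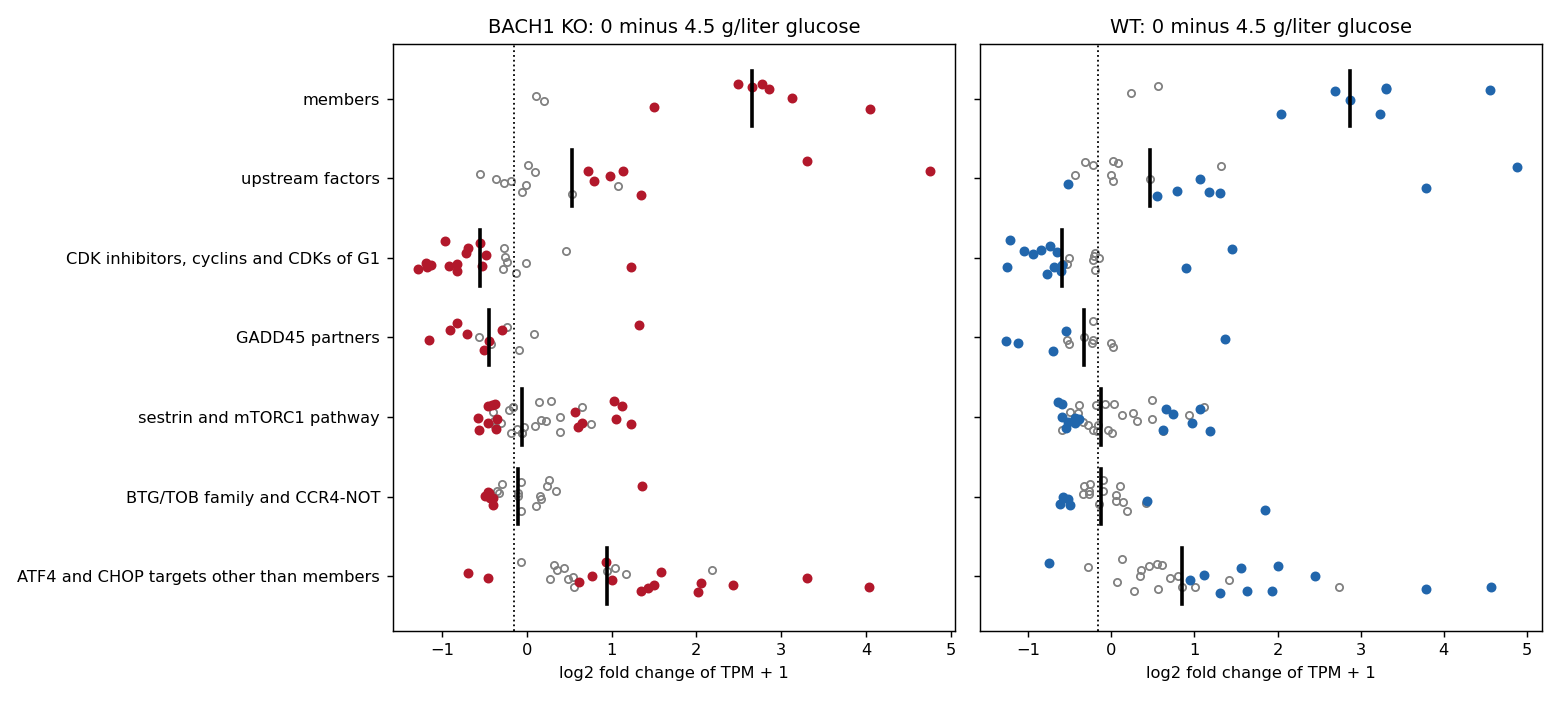
Log2 change of TPM + 1 on glucose removal (horizontal axis) for the 9 tested members (top row) and each tested gene of 6 lists (rows below), in BACH1 KO (left) and WT (right). Filled points had an adjusted p under 0.05 (limma), thick bars mark list medians and the dotted line the median of all genes. The members' medians are 2.66 in KO and 2.87 in WT (2.57 and 2.78 without GADD45G), and those of the G1 list -0.56 and -0.60. Some genes stand in more than 1 list.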

How the data were processed

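RNA-seq was analysed from 10 libraries of MDA-MB-231 cells, made from 3 clones lacking BACH1 and 2 WT clones, without and with (4.5 g/liter) glucose. Per the study's methods, poly-A RNA was sequenced as single-end reads of 100 bases, converted with bcl2fastq 2.19 and assigned to transcripts of GRCh38.p12 by kallisto 0.44.0. The authors deposited TPM per gene symbol. The annotation release and the summing of transcripts are not given in the sources used here. The authors named DESeq2 for differential expression, and their counts were not used here. Of 36459 symbols, 27 that had become dates, with 0.107 to 0.151% of the TPM, were left out.

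From these values, log2(TPM + 1) was fitted in R 4.3.3 by limma 3.58.1 (means of 4 groups, moderated with a trend of variance on mean, 6 residual degrees of freedom, two-sided). P-values were adjusted by Benjamini-Hochberg over 13418 genes, those reaching 1 TPM in any 2 libraries, and a gene was called under 0.05. The contrasts were glucose removal in KO (3 clones) and in WT (2 clones), KO against WT at each glucose level, and the difference of the responses. The fit was tested on simulated data. No 2 libraries held identical values. P-values rest on a spread between clones that is pooled over the 4 groups, so those for WT also draw on the KO clones. The main fit does not use the pairing of libraries by clone, which the clone block does. There were no technical replicates, and the unknown depth allows no counting interval.

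The clone numbers pair libraries within a genotype, because the labels name each clone once per glucose level. The correlation of paired deviations from group means was 0.609, 0.426 and 0.507 for KO clones 1, 2 and 3 and 0.0991 for the WT clones. Equal numbers in KO and WT are different clones. The members and the lists were chosen with earlier results of these data known. List genes named are up to 3 per list and direction with the smallest p among called genes, and FOXO1, FOXO3 and ATF4, called genes outside this, were named after their values were seen. Of 7 lists tested, 1 is not reported here. Alternatives were pseudocounts of 0.1 and 0.5, no filter or 5 TPM, median-ratio and quantile scaling, the clone block, the 2 groups alone, no trend, an adjusted p under 0.01, and leaving out each library. Gene places are from GENCODE v44 on GRCh38, and promoter sequences from RefSeq on GRCh38.p14.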

Additional observations from a re-analysis of the deposited data

How the results depend on the processing

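Over the alternatives, 863 of 868 member values stayed on the same side of the threshold, 5 came under it, and no call was lost or reversed. Values that were not called count among the 863 even where their sign turned, as for DDIT4 in KO and for several differences between KO and WT. The 868 include the comparisons of KO with WT, in which no member was called. GADD45A, GADD45B, SESN2, CDKN1A, BTG1 and BTG2 kept their calls in both genotypes in each of 19 alternatives. So did GADD45G, whose calls carry no weight because only its starved libraries took it past the filter. The count of members called higher on glucose removal in WT cells was 8 with median-ratio scaling, with the clone as a replicate block and without the trend, and 9 when the 2 groups were fitted alone, against 7 otherwise, and in KO cells it was 7 throughout. The added calls were SESN1 (adjusted p 0.0298 with median-ratio scaling, 0.0257 with the clone block, 0.0241 with the 2 groups alone and 0.0487 without the trend) and DDIT4 (0.0436 with the 2 groups alone, which leaves 2 residual degrees of freedom), and their cause was not tested. The clone block changed no other member's call. Counts of members called between KO and WT, or in the difference of responses, were 0 under every alternative run. Leaving out a library gave log2 changes in KO of 2.33 to 3.24 for GADD45A and of -0.24 to 0.46 for DDIT4. Leaving out any 1 of the 4 WT libraries leaves a WT group with 1 library, assumed to vary like the others. Far fewer genes were then called in WT cells over all genes, both higher and lower. Calls in WT also fell for most lists, among them upstream factors, ATF4 and CHOP targets and the G1 list. The sestrin and mTORC1 list and the BTG/TOB and CCR4-NOT list lost most of their calls in WT. The median of all genes was -0.03 in KO and -0.02 in WT with median-ratio scaling. Sequencing depth is unknown, which limits SESN3 and fed GADD45G most.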

Other observations

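In starved cells the unfolded protein response gene HERPUD1, a component of the degradation machinery of the endoplasmic reticulum, averaged 255 TPM in KO and 223 TPM in WT clones, and in fed cells 60.4 TPM in KO and 57.9 TPM in WT clones. Its log2 change on glucose removal was 2.06 in KO (adjusted p 8.61e-06, limma) and 1.93 in WT (5.68e-05). MYC, which represses CDKN1A in other settings, rose by 1.13 in KO (adjusted p 0.000218) and 1.06 in WT (0.00125), while CDKN1A rose in the same libraries. Whether MYC acted on CDKN1A here was not tested. CCNE1, the cyclin E1 gene, rose by 0.89 in WT (adjusted p 0.0124) and changed by 0.46 in KO (adjusted p 0.0555), where median-ratio scaling (0.59, adjusted p 0.0194) and quantile normalization (0.58, adjusted p 0.0173) called it.

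Asparagine synthetase (ASNS), a target of ATF4, had 28.6, 49.0 and 104 TPM in fed KO clones 1, 2 and 3, and TRIB3, a pseudokinase of the same pathway, had 10.8, 23.0 and 44.1 TPM, against 44.2 and 46.0 TPM (ASNS) and 16.3 and 17.4 TPM (TRIB3) in fed WT clones 1 and 2. DDIT4 had the same order of the fed KO clones, and the fed WT clones lay between the lowest and the highest of them. These genes were chosen after their values were seen.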
